A study of Mus musculus with 6 samples.

Results

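The Frizzled genes Fzd1 to Fzd10 encode the cell surface receptors for Wnt proteins, and their mRNA levels were compared between aged mice with a model of postoperative neurocognitive disorder and untreated controls. The members were the genes whose Ensembl identifier carries 1 of these 10 symbols. All 10 were present among the 21006 genes measured. The members were set by their symbols. The study names 1 of them, Fzd2, as an mRNA that databases link to a microRNA. It drew these mRNAs from those that passed its own differential expression test of the same samples. The naming of Fzd2 is therefore not independent of the values below. Unlike in the study, which names edgeR and limma for its test, Fzd2 did not pass the cut-off on fold change and p used here.

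The samples were prefrontal cortex of wild type male C57BL/6 mice, 1 sample for each animal. The age label reads 18 months, although the sample titles carry a different number. The PND group (n = 3) had isoflurane anesthesia with exploratory laparotomy, in which the abdomen is opened and its organs are inspected, and received lidocaine cream and povidone iodine on the wound. The CON group (n = 3) had neither anesthesia nor operation, so that anesthesia, surgery and wound care cannot be told apart. In both groups the mice went through behavioral tests that ended with the Barnes maze, a test of spatial memory, and the brain was taken under deep isoflurane after perfusion with saline. The animals of each group were picked at random from a larger cohort.

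A Frizzled receptor crosses the membrane several times and binds a Wnt protein through a cysteine-rich domain outside the cell. With the co-receptors Lrp5 and Lrp6 it halts the breakdown of beta-catenin, which then enters the nucleus and acts with Tcf and Lef proteins on target genes. Frizzled receptors also act without beta-catenin, in planar cell polarity and in the guidance of axons. In the cortex Wnt signals are known for their part in synapse formation, in the growth of blood vessels and in the maintenance of the blood-brain barrier. By sequence the family falls into the groups Fzd1, Fzd2 and Fzd7, then Fzd5 and Fzd8, then Fzd4, Fzd9 and Fzd10, and last Fzd3 and Fzd6.

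The values were FPKM, which count fragments relative to the exon length of a gene and to the depth of a library, so that levels of different genes can be set side by side as far as the exon lengths hold. Low values moved in steps, and 1 step was taken as 1 fragment. The effective depth obtained in this way was 7192919 to 9388758 fragments for a sample. It gave whole fragment numbers to within 0.0210 for Fzd1, Fzd2, Fzd7, Fzd9 and Fzd10 at their annotated exon length. For Fzd4, Fzd5, Fzd6 and Fzd8 they were whole to within 0.0579 once the exon length was itself read from the steps, and for Fzd3 no whole numbers were obtained. Over all genes checked, 93.8% to 94.5% of the low values of a sample were whole to within 0.05, where evenly spread values would give 10%. All 8 marker genes of cortical neurons on the list were measured, with a summed level of 129 to 172 FPKM. The summed level of 8 striatal markers ran from 136 to 347 FPKM, with both extremes in the CON group. In the tenth of genes richest in G and C (median 58.5%), levels deviated from the mean of each gene by a median of 0.11, -0.30 and 0.37 on the log2 scale in PND replicates 1 to 3, and -0.56, 0.49 and -0.035 in CON replicates 1 to 3. The part of tissue composition in the results was not tested, and a fit corrected for GC content is given where it changed a call. In tissue of many cell types, fewer cells of a type and less RNA in each cell cannot be told apart.

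Fzd3 made up most of the Frizzled mRNA in every sample, and the other 9 genes stood at low levels. The summed FPKM of the 10 genes was 43.3 ± 1.01 (SD, n = 3) in the PND group and 44.8 ± 3.48 (SD, n = 3) in the CON group. Fzd3 took 78.0% to 80.1% of this sum. Without Fzd3 the sum was 9.50 ± 0.221 FPKM in the PND group and 9.41 ± 1.20 in the CON group (SD, n = 3). Both sums differed between groups by less than the spread within the CON group.

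By mean level over the 6 samples, the order was Fzd3 (34.6 ± 1.75 FPKM), Fzd7 (2.28 ± 0.585), Fzd6 (2.18 ± 0.230), Fzd4 (2.06 ± 0.403), Fzd1 (1.54 ± 0.104), Fzd2 (0.545 ± 0.340), Fzd8 (0.375 ± 0.184), Fzd5 (0.346 ± 0.114), Fzd9 (0.0834 ± 0.0795) and Fzd10 (0.0487 ± 0.0281), each with the SD over n = 6. Of the 9 neighbouring pairs in this order, 3 were in the same order in 6 of 6 samples, namely Fzd3 above Fzd7, Fzd1 above Fzd2 and Fzd5 above Fzd9. For these pairs a two-sided exact permutation test over the 64 sign patterns of the within-sample differences gave p = 0.03125, the smallest it can give, and 0.0938 after Benjamini-Hochberg adjustment over the 9 pairs. For Fzd4 above Fzd1 the exact p was 0.0625, with the order kept in 5 of 6 samples. The other 5 pairs had exact p-values from 0.25 to 0.719. At this spread Fzd7, Fzd6 and Fzd4 could not be ordered, nor could Fzd2, Fzd8 and Fzd5. The order also rests on the exon lengths of the authors, which by the steps were 3686 bases for Fzd4, 9809 for Fzd5 and 3347 for Fzd8, against 6720, 6915 and 5974 in GENCODE M21. At the GENCODE lengths Fzd4 would average 1.13 FPKM, below Fzd1, and Fzd5 with 0.490 FPKM would stand above Fzd8 with 0.210 FPKM.

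**Figure D1:**
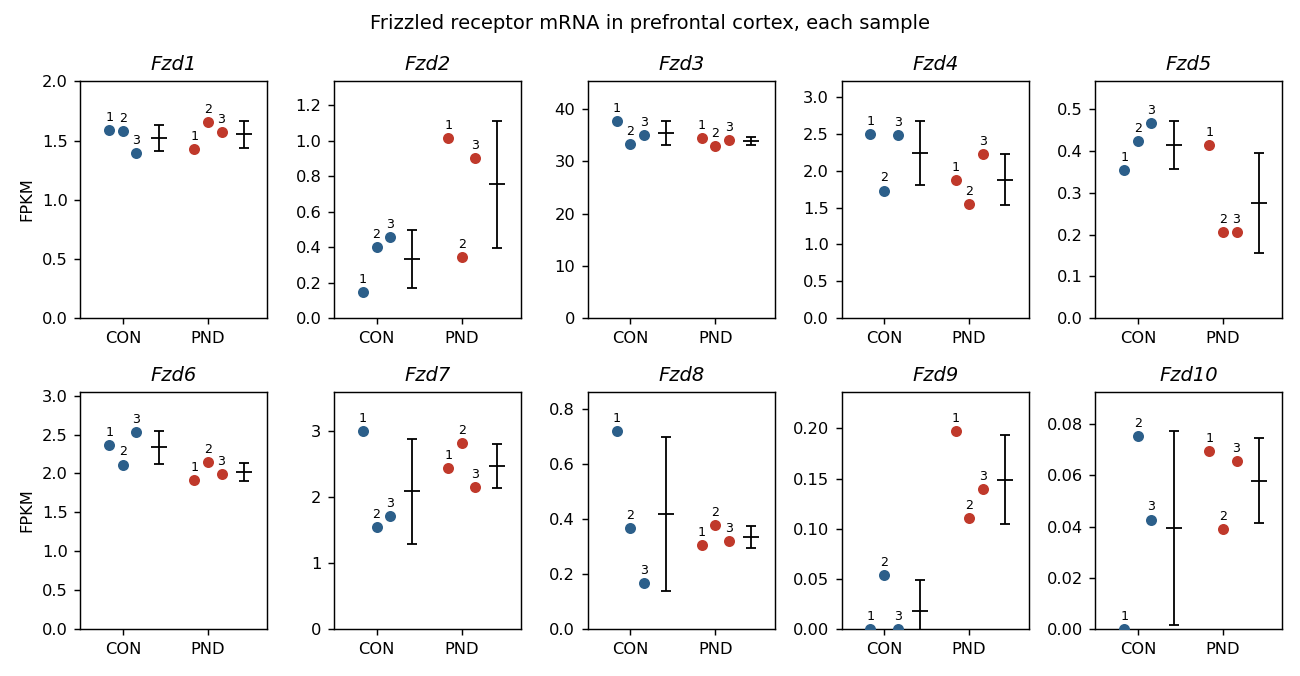
FPKM of each Frizzled gene (vertical axis, its own scale in each panel) in the CON and PND groups. Each point is 1 sample with its replicate number, and the bar beside the points is the mean with the SD (n = 3), which for Fzd9 in the CON group reaches below the axis. Fzd3 stood at 32.9 to 37.8 FPKM and the next highest value was 3.00 FPKM, in Fzd7, and only for Fzd9 did the groups not overlap.

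In the comparison of the groups, 8 Frizzled genes passed the filter of a mean of 0.1 FPKM, and Fzd9 and Fzd10 did not. The cut-off asked for a log2 fold change beyond 1 in either direction together with an unadjusted limma p below 0.05. It was passed by 0 of the 8 Frizzled genes, beside 1.33% of the 18185 genes tested. An unadjusted p below 0.05 was reached by 0 of the 8, beside 3.13% of all genes. With voom of limma on estimated fragments both counts were also 0. The fold change was above 0 on the log2 scale for Fzd1, Fzd2 and Fzd7 and below 0 for the other 5 genes, with a median of -0.09 against 0.01 over all genes tested. Of these 8, only Fzd1 changed sign under another scaling, to -0.046 with GC correction. In limma as reported, the adjusted p was 0.9999 for each of the 8 genes.

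**Figure D2:**
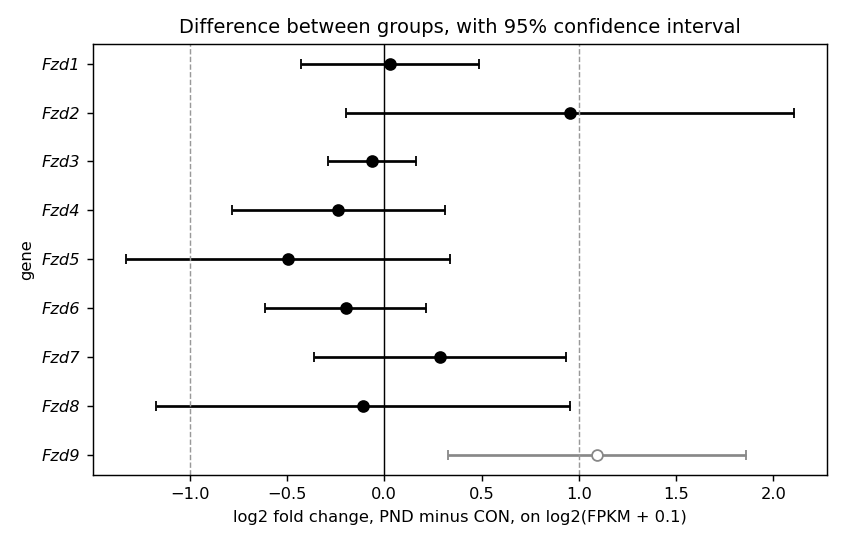
Log2 fold change of PND against CON (horizontal axis, on log2(FPKM + 0.1)) with its 95% confidence interval for each Frizzled gene. Filled points are genes that passed the filter, the open point is Fzd9 in the fit without the filter, and dashed lines mark a log2 fold change of -1 and 1. The intervals of all 8 tested genes include 0, from the narrow one of Fzd3 (-0.29 to 0.17) to the wide one of Fzd2 (-0.20 to 2.11).

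Fzd2, a receptor of both the beta-catenin and the planar polarity branch, had the largest difference of the 8 genes tested. Its level was 1.02, 0.345 and 0.901 FPKM in PND replicates 1 to 3. In CON replicates 1 to 3 it was 0.146, 0.402 and 0.455 FPKM. PND replicates 1 and 3 lay above all CON samples, but PND replicate 2 lay below CON replicates 2 and 3, so that the groups overlapped. The means were 0.755 ± 0.360 FPKM in the PND group and 0.334 ± 0.166 FPKM in the CON group (SD, n = 3). The log2 fold change was 0.95 with an SE of 0.49, a 1.94-fold difference on the log2(FPKM + 0.1) scale. Its limma p was 0.0916 before and 0.9999 after adjustment. This p was number 1103 in the ranking of the 18185 genes.

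Few fragments stood behind these values of Fzd2. They numbered 33, 10 and 31 in the PND group and 4, 12 and 12 in the CON group. With 95% exact Poisson intervals, which cover counting error only, PND replicate 2 stood at 0.166 to 0.635 FPKM, below the interval of 0.701 to 1.43 FPKM in PND replicate 1. The intervals of these animals of the same group did not overlap. The 74 fragments of the PND group against the 28 of the CON group gave a ratio of 2.31 at equal depth, with a counting interval of 1.48 to 3.71 that leaves out the spread between animals.

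The p of Fzd2 depended on single samples, and the size of its fold change on the pseudocount, with 0.38 at a pseudocount of 1. Without PND replicate 2 the log2 fold change of Fzd2 was 1.37 with an unadjusted p of 0.0237, which passed the cut-off. Without CON replicate 1 it was 0.59 with a p of 0.257. With correction for GC content it was 0.87 with a p of 0.0467, and the correction together with the replicate block gave a p of 0.0652.

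**Figure D3:**
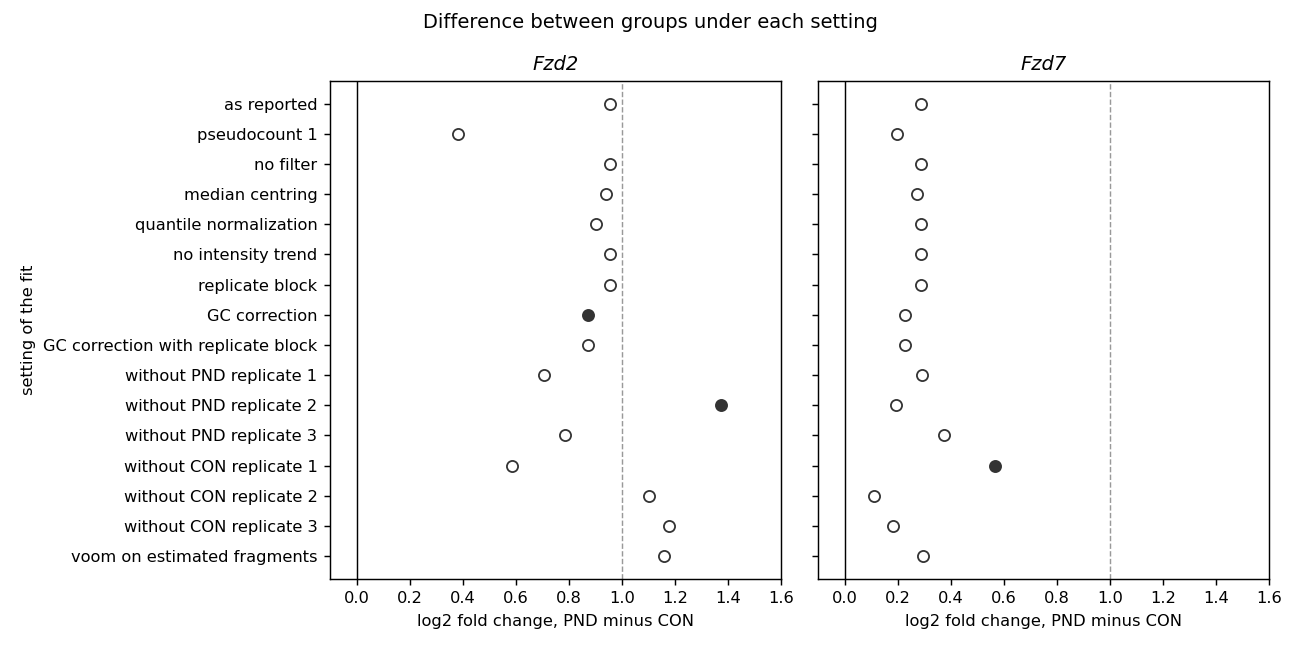
Log2 fold change of PND against CON (horizontal axis) for Fzd2 and Fzd7 under each setting of the fit (rows), including the fits that leave out 1 sample. Filled points have an unadjusted p below 0.05 and the dashed line marks a log2 fold change of 1. Fzd2 ran from 0.38 to 1.37 and Fzd7 from 0.11 to 0.57, each above 0 under every setting shown.

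Fzd1 and Fzd7 are the closest relatives of Fzd2. Fzd1 stood at 1.43, 1.66 and 1.57 FPKM in the PND group and at 1.59, 1.58 and 1.39 FPKM in the CON group. It was the steadiest of the low members, and its log2 fold change was 0.03 (SE 0.20, 95% confidence interval -0.43 to 0.49). Fzd7, found in progenitor cells of many tissues, stood at 2.44, 2.82 and 2.16 FPKM in the PND group. In the CON group it stood at 3.00, 1.54 and 1.72 FPKM, so that CON replicate 1 was the highest of all samples and the other two were the lowest. Its log2 fold change was 0.29 (95% confidence interval -0.36 to 0.94) with an unadjusted p of 0.335. Without CON replicate 1 the difference of Fzd7 was 0.57 with a p of 0.0344.

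The coding sequences of Fzd1, Fzd2 and Fzd7 share stretches of identical bases. A read that lies wholly within such a stretch cannot be assigned to 1 gene by its sequence, while a longer read also covers bases that differ. The methods of the study do not state the read length of the mRNA libraries. The longest exact stretch was 47 bases between Fzd1 and Fzd2, 47 between Fzd1 and Fzd7 and 38 between Fzd2 and Fzd7. Words of 31 bases found in both genes made up 1.46% of the Fzd2 transcript for Fzd1 and 0.578% for Fzd7. The stretch shared by Fzd1 and Fzd2 is shown with its best match in 4 other members, to show how close the members of each group are. It begins at base 1009 of the Fzd2 coding sequence, at chr11:102605740-102605786 (plus strand, GRCm38), within the single exon of the gene. Capitals mark bases that differ from Fzd2.
Fzd2: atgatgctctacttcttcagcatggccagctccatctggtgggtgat
Fzd1: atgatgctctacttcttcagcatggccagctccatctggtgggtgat
Fzd7: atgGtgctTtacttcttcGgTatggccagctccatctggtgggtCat
Fzd5: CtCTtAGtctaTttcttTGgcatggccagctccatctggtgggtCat
Fzd9: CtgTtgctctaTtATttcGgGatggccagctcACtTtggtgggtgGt
Fzd3: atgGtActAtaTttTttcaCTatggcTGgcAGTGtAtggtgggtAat
Over these 47 bases Fzd1 had 0 differences from Fzd2, Fzd7 had 5, Fzd5 and Fzd8 had 9 each, Fzd4 and Fzd10 had 10, Fzd9 had 11, Fzd6 had 13 and Fzd3 had 15. The matches lie at chr5:4756331-4756377 (minus strand) for Fzd1, chr1:59483974-59484020 (plus) for Fzd7, chr1:64735597-64735643 (minus) for Fzd5, chr5:135250029-135250075 (minus) for Fzd9 and chr14:65235401-65235447 (minus) for Fzd3. How the authors assigned reads that fit more than 1 gene was not given in the sources used here.

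The study pairs Fzd2 with mmu-miR-544-5p in a list of microRNA and mRNA relations taken from databases. MicroRNAs bind mRNAs mainly through their seed, bases 2 to 8, which pairs with a matching site in the 3′ untranslated region. The mature microRNA lies at chr12:109729335-109729355 (plus strand, GRCm38.p6) in the RefSeq table and is printed with its seed in capitals.
mmu-miR-544-5p: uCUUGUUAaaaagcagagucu
The complement of the seed, TAACAAG, was searched in the 3′ untranslated region of each Frizzled gene on the transcript strand only. It was found once in Fzd2, once in Fzd3 and 2 times in Fzd5, and 0 times in the other 7 members. The sites are printed with the matching letters in capitals, since they set Fzd2 beside the 2 other members that hold the same letters.
Fzd2: gatatttttttTAACAAGacttggattcgt
Fzd3: gctgagctacaTAACAAGaccctgttttca
Fzd5, first: atctgtactgaTAACAAGaagcgaaatgaa
Fzd5, second: gaagggaaaccTAACAAGacagtaaagaag
They lie at chr11:102606977-102607006 (plus strand) for Fzd2, chr14:65194251-65194280 (minus) for Fzd3, and chr1:64732268-64732297 and chr1:64731358-64731387 (minus) for Fzd5, all on GRCm38. The 3′ untranslated region of Fzd2 is 1614 bases long. Of 6814 genes with a region at least that long, 8.83% held the letters within their first 1614 bases. At the length of the Fzd5 region, 4285 bases, 21.4% of 1193 genes held them, and at the 10270 bases of Fzd3 44.6% of 56 genes did. The log2 fold changes of the 3 members with a match were 0.95 for Fzd2, -0.06 for Fzd3 and -0.50 for Fzd5, and none passed the test. The level of the microRNA was not analysed here.

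Fzd3 and Fzd6 are known for planar polarity, and Fzd3 for the guidance of axon tracts in the forebrain. Fzd3 (chr14:65192449-65262463, minus strand) stood at 34.4, 32.9 and 34.2 FPKM in the PND group. The CON samples stood at 37.8, 33.3 and 35.0 FPKM. All 6 samples lay close together and the groups overlapped. The log2 fold change was -0.06 (SE 0.10), and the confidence interval of -0.29 to 0.17 was the narrowest of the family. Fzd6 stood at 1.92, 2.15 and 1.99 FPKM in the PND group and at 2.36, 2.12 and 2.53 FPKM in the CON group. CON replicates 1 and 3 lay above every PND sample, and CON replicate 2 lay among them. The log2 fold change of Fzd6 was -0.20 (95% confidence interval -0.61 to 0.21) with an unadjusted p of 0.297. Fzd3 overlaps 2 small annotated genes and Fzd6 overlaps 1 gene on the opposite strand, and whether strand was used in counting was not given in the sources used here.

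Fzd4, the receptor of Norrin in the vessels of brain and retina, stood at 1.87, 1.54 and 2.23 FPKM in the PND group. In the CON group it stood at 2.50, 1.73 and 2.49 FPKM, so that replicates 1 and 3 lay above all PND samples. The log2 fold change was -0.24 (95% confidence interval -0.79 to 0.31) with an unadjusted p of 0.345. It ran from -0.40 without CON replicate 2 to -0.11 without PND replicate 2. Its ligand gene Ndp, which encodes Norrin, stood at 0.408, 0.391 and 0.824 FPKM in the PND group and at 1.03, 0.633 and 0.932 FPKM in the CON group. The groups overlapped for Ndp as well, with a log2 fold change of -0.63 and a p of 0.117, and without PND replicate 3 these were -0.93 and 0.0360. Tspan12, the membrane partner of Fzd4 in Norrin signaling, had the opposite sign with 0.34 and a p of 0.112. With GC correction Tspan12 had 0.38 with a p of 0.0215, and without CON replicate 1 it had 0.48 with a p of 0.0302. The summed level of all 10 endothelial markers was 45.0 to 56.6 FPKM in the PND group and 37.2 to 45.5 FPKM in the CON group, and its part in these values was not tested. Of these markers 6 had the higher and 4 the lower value in the PND group. Tek was lower without overlap at a log2 fold change of -0.38, and Ly6c1 was higher without overlap at 0.79. Groups without overlap were found in 7.35% of all genes. Ly6c1 was the only one of these markers with a limma p below 0.05, beside 3.13% of all genes.

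Fzd5 and Fzd8 form a pair of receptors for the beta-catenin branch. Fzd5 stood at 0.415, 0.206 and 0.206 FPKM in the PND group and at 0.354, 0.425 and 0.468 FPKM in the CON group. PND replicates 2 and 3 lay below all CON samples, but PND replicate 1 lay within their range. The log2 fold change of Fzd5 was -0.50 (SE 0.36, 95% confidence interval -1.33 to 0.34), with an unadjusted p of 0.204. Fzd8 stood at 0.304, 0.378 and 0.318 FPKM in the PND group. In the CON group Fzd8 spread from 0.718 through 0.367 to 0.166 FPKM in replicates 1 to 3, on both sides of the PND samples, from 18, 10 and 4 fragments. Its log2 fold change of -0.11 (95% confidence interval -1.18 to 0.95) became 0.29 without CON replicate 1. Fzd5 overlaps 1 annotated gene on the opposite strand.

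Fzd9, located at chr5:135248938-135251230 (minus strand, GRCm38) and known from hippocampal development, was the only member whose groups did not overlap. Groups without overlap were found in 7.35% of all 21006 genes, 3.71% with PND above CON. Fzd9 stood at 0.197, 0.110 and 0.139 FPKM in the PND group, from 4, 2 and 3 fragments. In the CON group it was listed at 0 in replicates 1 and 3 and at 0.0535 FPKM, from 1 fragment, in replicate 2. At the depth of these 2 samples a count of 0 allows up to 3 fragments, or 0.175 and 0.182 FPKM, which is above 2 of the PND samples. The upper end of the exact 95% Poisson interval was 0.215 and 0.224 FPKM, above all 3 of them. The 9 fragments of the PND group against 1 of the CON group gave a ratio of 7.86. Its 95% counting interval was 1.09 to 345, which leaves out the spread between animals. In the fit without a filter the log2 fold change of Fzd9 was 1.09 (SE 0.33), and its limma p was 0.0115 before and 0.9996 after adjustment. It then passed the cut-off, as did 1.5% of the 21006 genes, 0.985% of them with a higher value in the PND group. The size of this fold change depends on the pseudocount and is no bound. Fzd10 was at or under 2 fragments in every sample, between 0 and 0.0755 FPKM, so that no difference was detectable at this depth.

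Across samples the members did not move as 1 block. Fzd2 had the largest spread of the 8 tested genes, with an SD of 0.81 on the log2 scale over the 6 samples, and Fzd3 the smallest with 0.071. CON replicate 1 was the lowest sample of Fzd2, at -1.21 from its mean, and the highest sample of Fzd3, Fzd4, Fzd7 and Fzd8. PND replicate 2 was below the mean for Fzd2 by -0.36 and above it for Fzd7 by 0.33. In the fit with GC correction the Fzd2 values on the log2 scale were 0.054, -0.93 and -0.30 in the PND group and -1.60, -1.37 and -0.82 in the CON group. After this correction PND replicate 2 was still below CON replicate 3.

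**Figure D4:**
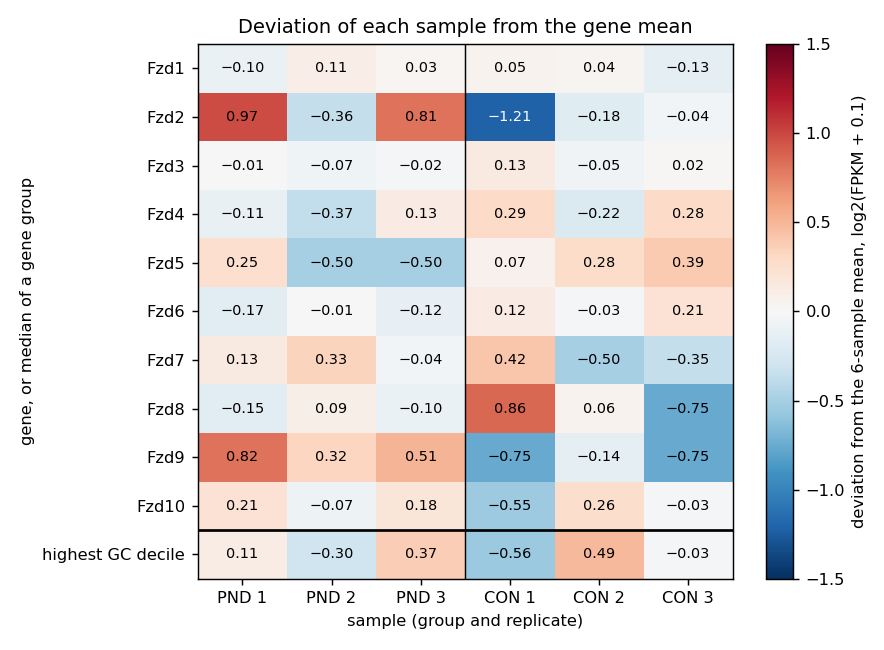
Deviation of each sample (columns) from the gene's mean over the 6 samples for each Frizzled gene (rows), on log2(FPKM + 0.1). The bottom row is the median deviation of the tenth of genes with the highest GC content. Fzd2 ran from -1.21 in CON replicate 1 to 0.97 in PND replicate 1, while Fzd3 stayed within 0.13 of its mean.

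The genes whose pattern over the 6 samples was most like that of Fzd2, of 12323 genes that averaged 1 FPKM or more, were Samd1, Mfsd2a, Ptgds, Cisd3 and Yju2. The measure was the root mean square difference of the centred log2 values, which was 0.265 for Samd1 and 0.286 for Yju2, the first and the last of the 5. Mfsd2a, a lipid transporter of brain vessels, stood at 2.23, 0.988 and 2.65 FPKM in the PND group and at 0.744, 1.23 and 0.982 FPKM in the CON group. Ptgds, which makes prostaglandin D, stood at 41.0, 19.3 and 45.3 FPKM in the PND group and at 9.11, 33.0 and 24.8 FPKM in the CON group. As in Fzd2, PND replicate 2 was the lowest PND sample and CON replicate 1 the lowest of all, which follows from how these genes were picked. The same samples were also the lowest in the tenth of genes richest in G and C, with medians of -0.30 and -0.56. The part of GC content in this likeness was not tested. The other 7 Frizzled genes that passed the filter differed from Fzd2 by 0.770 or more. Fzd9 and Fzd10, which did not pass it and rest on few fragments, were nearer, at 0.466 and 0.532.

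Of the other Wnt pathway genes, 97 in 9 lists, 90 were among the genes measured and 78 passed the filter. The cut-off was passed by 2 of the 78, both with the higher value in the PND group, beside 0.841% of all genes in that direction, and 0 passed it in the other direction, beside 0.484%. Both genes passed the filter on low values only through their level in the PND group, so that the count is a description and no support for a change of the pathway. An unadjusted p below 0.05 was reached by 4, all with the higher value in the PND group, beside 1.73%, against 0 with the lower value, beside 1.4%. The groups did not overlap for 9 of the 90 genes, beside 7.35% of all genes, and in 7 of them PND lay above CON, beside 3.71%. The fold change was above 0 on the log2 scale for 46 and below 0 for 32, with a median of 0.07 against 0.01 over all genes. In limma as reported, with an intensity trend, every adjusted p of these genes was close to 1, and with no trend the adjusted p was 0.568 for Wnt10b, 0.611 for Sostdc1 and 0.610 for Dkk2.

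Of the Wnt ligands, 10 of 20 listed genes were tested, 1 passed the cut-off with the higher value in the PND group, beside 0.841% of all genes, and 0 with the lower value, beside 0.484%. The gene past it was Wnt10b, a ligand of the beta-catenin branch, which passed the filter only through the PND group, with a mean of 0.0145 FPKM in the CON group. Wnt10b stood at 0.147, 0.288 and 0.174 FPKM in the PND group, from 4, 7 and 5 fragments. Among the CON samples it stood at 0.0435 FPKM, from 1 fragment, in replicate 1 and was listed at 0 in the other samples. The groups did not overlap, and the ratio of 16 fragments to 1 was 14.0 with a 95% counting interval of 2.17 to 586. That interval leaves out the spread between animals, and the gene was named by the same values, so it is no support for a difference. The log2 fold change was 1.40, with a limma p of 0.0146 before and 0.9999 after adjustment. Its size depends on the scale, from 0.24 at a pseudocount of 1 to 2.88 with voom, and GC correction plus the replicate block gave a p of 0.0512. Wnt4, the ligand with the highest level, stood at 0.827 to 2.90 FPKM in the CON group and at 1.18 to 2.05 FPKM in the PND group, with a log2 fold change of 0.33 and a p of 0.523. Without CON replicate 2 Wnt4 had 0.89 with a p of 0.0231, and without CON replicate 1 it had 0.043. Wnt5a, a ligand of the branch without beta-catenin, had a log2 fold change of -0.67 with a p of 0.186. Without CON replicate 3 it passed the cut-off in the lower direction, with -1.09 and a p of 0.0331. Wls, which carries Wnt proteins to the cell surface, was the higher of 2 secretion genes and had 0.42 with a p of 0.20. Without CON replicate 2 Wls had 0.68 with a p of 0.0419, and without CON replicate 3 it had 0.15.

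Secreted inhibitors gave the other gene past the cut-off, and 2 of 11 tested genes had an unadjusted p below 0.05, both with the higher value in the PND group, beside 1.73% of all genes. This gene, Sostdc1, passed the filter only through the PND group, with a mean of 0.0519 FPKM in the CON group. Sostdc1, an antagonist that binds Lrp co-receptors, stood at 0.258, 0.289 and 0.304 FPKM in the PND group, from 4, 4 and 5 fragments. The CON samples stood at 0.0762, 0 and 0.0794 FPKM, from 1, 0 and 1 fragments, below every PND sample. The ratio was 5.68 with a counting interval of 1.29 to 51.8, which leaves out the spread between animals. As for Wnt10b, the gene was named by the same values, so the interval is no support for a difference. The log2 fold change was 1.38 with a limma p of 0.0119 and an adjusted p of 0.9999. At a pseudocount of 1 it was 0.29, and with voom 2.05. Sostdc1 is also abundant in choroid plexus, whose 9 measured markers summed to 3.03 to 3.69 FPKM in the PND group and to 1.56 to 3.04 FPKM in the CON group. Of these markers 4 were tested, all 4 with the higher value in the PND group, beside 9529 of the 18185 genes tested. Clic6 stood at 1.51 to 2.14 FPKM in the PND group and at 0.701 to 1.49 FPKM in the CON group. Its log2 fold change was 0.80 with a limma p of 0.0319, where 1.73% of all genes had a p below 0.05 in that direction. The defining choroid plexus markers Ttr, Folr1, Aqp1 and Cldn2 were at or below 0.207 FPKM in every sample, and the part of this tissue in the Sostdc1 values was not tested. Dkk2, an antagonist of Lrp6, stood at 0.397, 0.273 and 0.316 FPKM in the PND group and at 0.144, 0.132 and 0.113 FPKM in the CON group, without overlap. Its log2 fold change was 0.89 with a p of 0.0345. The p was 0.0569 with quantile normalization, 0.0753 with the replicate block, 0.0555 with the block and GC correction, and from 0.0422 to 0.107 when a sample was left out, above 0.05 without PND replicate 1 or 3 and without CON replicate 2 or 3. Notum, an enzyme that inactivates Wnt proteins, also had every PND sample above every CON sample, and had 0.81 with a p of 0.149. Its log2 fold change was 0.34 without CON replicate 1 and 0.16 at a pseudocount of 1. Sfrp4, which binds Wnt proteins, stood at 0.451, 0.432 and 0.607 FPKM in the PND group, below the CON samples at 0.684, 0.629 and 0.792 FPKM without overlap, and had -0.43 with a p of 0.159. Dkk3, the inhibitor gene with the highest level, had 0.04 with a p of 0.849.

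**Figure D5:**
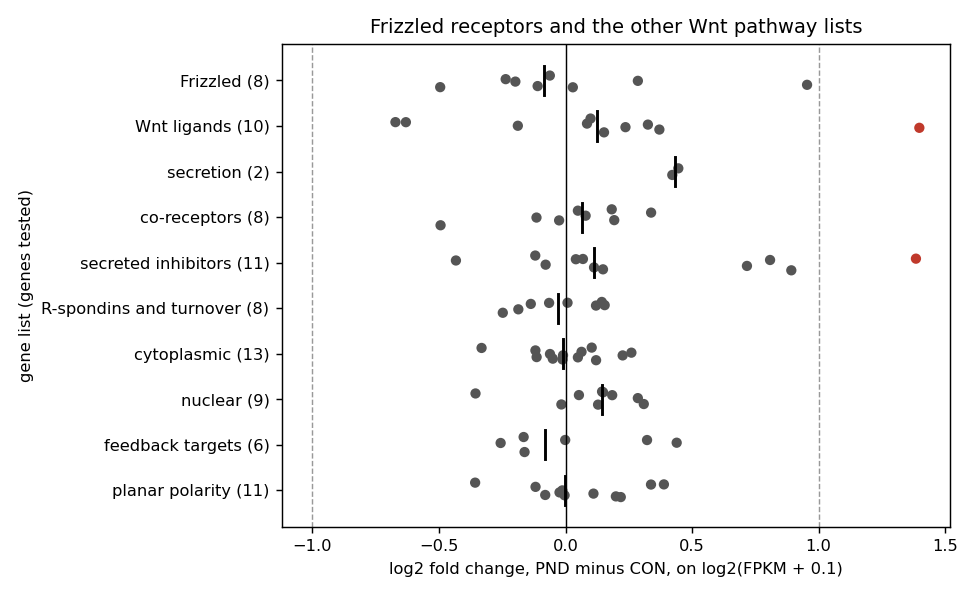
Log2 fold change of PND against CON (horizontal axis) for each tested gene of the Frizzled family and of 9 other Wnt pathway lists (rows, number of genes tested in parentheses). Each point is 1 gene, the black tick is the median of the list, red points passed the cut-off and dashed lines mark -1 and 1. The 2 red points are Wnt10b at 1.40 and Sostdc1 at 1.38, and the list medians lie between -0.09 and 0.43.

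Co-receptors, receptor turnover and the inner parts of the pathway gave 0 genes past the cut-off, beside 1.33% of all genes. Lrp6, the main co-receptor by level, stood at 13.0, 14.3 and 12.5 FPKM in the PND group and at 13.7, 13.1 and 13.6 FPKM in the CON group, with a log2 fold change of -0.03 and a p of 0.826. Of the R-spondins and the genes of receptor turnover, Rspo3, which protects Frizzled receptors from removal, had -0.14 with a p of 0.345. Its receptor Lgr4 had -0.25 with a p of 0.149. Gsk3b, the kinase that marks beta-catenin for breakdown, had -0.01 with a p of 0.936. Pygo1, a nuclear partner of beta-catenin, had 0.15 with a p of 0.323. Ccnd1, a feedback target at the end of the pathway, had -0.17 with a p of 0.431, and 0 of the 6 feedback targets tested had a p below 0.05, beside 3.13% of all genes. Axin2, a feedback target singled out after its values were seen, had -0.26 with a p of 0.457.

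Among the genes of planar polarity, Daam2, a formin-type protein that acts below Frizzled and Dishevelled, was the only one of 11 with an unadjusted p below 0.05, beside 3.13% of all genes. Daam2 stood at 17.1, 16.9 and 20.2 FPKM in the PND group and at 11.6, 15.6 and 14.4 FPKM in the CON group, and every PND sample lay above every CON sample. Its log2 fold change was 0.39 (SE 0.15) with a p of 0.0323 and an adjusted p of 0.9999 in limma. The p was 0.0710 with no intensity trend and from 0.0179 to 0.109 when a sample was left out, above 0.05 without PND replicate 1 or 3 and without CON replicate 1 or 3. Its relative Daam1, with the highest level of the list, had -0.08 with a p of 0.487.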

How the data were processed

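mRNA was measured in prefrontal cortex of 3 PND and 3 CON mice. The authors removed ribosomal RNA, filtered the reads with Seqtk, aligned them with HISAT2, counted fragments with StringTie, scaled samples by TMM and deposited FPKM, 1 column for each animal. The processing notes of the submitters name Bowtie 0.12.2 and the builds mm8 and mm9, which do not match these methods, so the build behind the FPKM was not settled. Coordinates, exon lengths, GC content and transcripts came from GENCODE M21 (GRCm38), which held 20877 of the 21006 identifiers. Groups came from the treatment labels and replicate numbers from the titles.

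The groups were compared by limma 3.58.1 (R 4.3.3, lmFit and eBayes with a trend, two-sided) on log2(FPKM + 0.1). Of the genes, 18185 averaged 0.1 FPKM or more and were tested, with Benjamini-Hochberg adjustment over all of them. A pseudocount of 0.1 understates the change of low genes. The fit was tested on simulated fragments with planted changes larger than that of Fzd2, which does not show how well it finds smaller changes at low levels. Fragments were FPKM times exon length times effective depth. Where they came in steps other than 1, the exon length of the authors was taken from the step, which for Fzd4, Fzd5, Fzd6 and Fzd8 differed from GENCODE M21. Only counts up to 150 were read as whole. The depth limits precision most for Fzd2, Fzd8, Fzd9 and Fzd10.

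The named genes were all Frizzled genes and the 5 most like Fzd2. Of the Wnt genes, those past the cut-off, the 10 with the smallest p and the highest of each list were named. Axin2 and the single cell type markers were named outside these rules. The members, lists, rules and alternatives were chosen with earlier results of these data known.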

Additional observations from a re-analysis of the deposited data

How the results depend on the processing

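The Frizzled comparison was repeated under 10 alternatives on all samples and in 6 fits that each left out 1 sample, in which the remaining samples set the spread. voom on estimated fragments was chosen after seeing the data. The count of Frizzled genes past the cut-off was 0, but 1 with no filter (Fzd9). It ran from 0 to 1 when a sample was left out, with 1 (Fzd2) without PND replicate 2. The count with an unadjusted p below 0.05 was 0, but 1 with no filter (Fzd9) and 1 with GC correction (Fzd2), and ran from 0 to 1 when a sample was left out. The count of Wnt pathway genes past the cut-off was 2, but 0 with 1 as the pseudocount, 0 with a filter at 1 FPKM, which leaves out both genes, 1 (Sostdc1) with GC correction plus replicate block and 3 with voom, which added Dkk2. The count ran from 2 to 3 when a sample was left out, with Wnt5a added without CON replicate 3. Of neighbouring pairs in the order of levels, 3 were alike in every sample, 3 to 4 without a sample and 5 at GENCODE exon lengths, an alternative also chosen after seeing the data. Without PND replicate 2 and without CON replicate 1, 2 and 1 of these pairs were among the original 3.

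Fzd1 changed sign to -0.046 with GC correction, alone and with the replicate block, and ran from -0.030 to 0.085 when a sample was left out. The same fits gave -0.52 to 0.29 for Fzd8, -0.083 to 0.018 for Lrp6, -0.11 to 0.27 for Dkk3, -0.084 to 0.078 for Gsk3b and -0.58 to 0.058 for Axin2. The causes of these changes were not tested.

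Replicate numbers 1 to 3 were shared by the groups, but same-numbered samples did not deviate together, with correlations of -0.049, -0.45 and 0.027 between their deviations from the group means. With the number as a replicate block the counts were 0, 0 and 2, and the p of Fzd2 was 0.133.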
